A study of Homo sapiens with 35 samples.

Results

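The genes described here build cholesterol and fatty acids: 32 protein-coding genes, chosen by symbol as 5 regulators, 19 genes of the sterol branch and 8 of fatty acid synthesis, out of 19665 protein-coding entries in the count table. All 32 had counts, at least 16 in any library, and all passed filterByExpr, the filter on low counts of edgeR. RNA came from RPMI-8226, an established human multiple myeloma line, which is a malignant plasma cell growing in suspension. The cells received carfilzomib, an irreversible inhibitor of the proteasome, at 750 nM for 1 h, were washed, and were sampled on days 1, 2, 4, 6, 8 and 10. Day 0 cells were collected before the drug according to the methods, whereas their label lists the drug too, and they were taken here as untreated. Each of the 7 days had 5 libraries, 35 in all. The libraries were subcultures split from a single culture, so p-values measure the spread between subcultures and not between separate experiments. Medium with serum was renewed every 48 h. From day 2 on, cells were harvested right before a renewal, whereas day 1 fell between renewals, and whether day 0 cells were collected before or after fresh medium was not given. Time after the pulse and time since fresh medium therefore cannot be told apart for day 0 and day 1.

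Depth ran from 6519392 to 10962890 estimated counts per library. Levels are given as CPM, protein-coding counts scaled to a common library total, and changes as log2 fold changes ± standard error from edgeR's quasi-likelihood test over 17999 transcripts, called at an adjusted p (Q) of 0.05 or below. CPM is not corrected for transcript length, so levels were compared between days and not between genes. Plasma cell markers were abundant, with 8 of 9 above 10 CPM on average on day 0, while CD27 was at 0.113 ± 0.252 CPM (SD, n = 5). Markers of T cells, monocytes, stromal and erythroid cells, summed separately for each type, reached at most 6.06 CPM in any library. The 4 epithelial markers, in contrast, summed to 321.0 to 502 CPM, led by KRT18 on day 0.

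Cholesterol synthesis is controlled by SREBP2 and fatty acid synthesis mostly by SREBP1, membrane-bound transcription factors encoded by SREBF2 and SREBF1. The escort protein SCAP carries them from the endoplasmic reticulum to the Golgi, where proteases release the active factor, and the sterol sensors INSIG1 and INSIG2 hold SCAP back while sterols are plentiful. The mevalonate pathway turns acetyl-CoA into farnesyl diphosphate, squalene synthesis and a series of oxygen-using steps then give cholesterol, and citrate-derived acetyl-CoA is separately built into palmitate, which is desaturated and elongated.

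The sequences upstream of these genes were searched for 4 short motifs in the promoter table of RefSeq (GRCh38.p14), which held 28 of the 32 genes (ACAT2, FDFT1, SQLE and FASN were not in it). The motifs, read on both strands in the 250 bases before a transcript start, were TCACNCCAC (the classical sterol element with 1 open position), CCAAT (the NF-Y box), GGGCGG (the GC box bound by SP1) and CACGTG (the E-box), and none of the 4 contains another. A gene counted when any of its promoters matched. CCAAT was found in 14 of 16 sterol branch genes, in 4 of 7 genes of fatty acid synthesis and in 2 of 5 regulators, against 37.0% of all 27305 genes in the table and 40.6% of the 13348 tested protein-coding genes in it. GGGCGG was found in 15 of 16, 6 of 7 and 5 of 5, against 46.2% and 66.2%. CACGTG was found in 1 of 16, 1 of 7 and 2 of 5, against 7.73% and 10.2%. TCACNCCAC was found only in SREBF2, 133 bases before the start, against 1.09% and 1.24%, and these matches describe letters and not bound sites. Only exact matches counted, so near forms such as TCACCCCAG before MVK were left out. Upstream stretches of 5 genes, each ending before the first annotated base of the gene, are shown 5′ to 3′ on the gene's own strand, with matches to TCACNCCAC and CCAAT or its complement in capitals. SREBF2 (chr22:41832855-41833104, plus strand) holds the single exact match to TCACNCCAC. MSMO1 (chr4:165327419-165327666, plus strand) and EBP (chrX:48521558-48521798, plus strand) are sterol genes that rose strongly and hold 4 and 3 CCAAT matches. PMVK (chr1:154936720-154936969, minus strand) is a sterol branch gene that moved little and holds none, and SCD (chr10:100346983-100347232, plus strand) is a fatty acid desaturase with 2. The number of CCAAT matches did not follow the rise throughout, as CYP51A1, not printed, rose by 1.52 on day 1 and holds none.
SREBF2: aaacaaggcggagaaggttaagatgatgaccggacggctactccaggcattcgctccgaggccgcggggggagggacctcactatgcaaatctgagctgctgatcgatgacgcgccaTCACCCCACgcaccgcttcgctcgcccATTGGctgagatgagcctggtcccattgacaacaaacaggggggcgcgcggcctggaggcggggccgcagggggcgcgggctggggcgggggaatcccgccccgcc
MSMO1: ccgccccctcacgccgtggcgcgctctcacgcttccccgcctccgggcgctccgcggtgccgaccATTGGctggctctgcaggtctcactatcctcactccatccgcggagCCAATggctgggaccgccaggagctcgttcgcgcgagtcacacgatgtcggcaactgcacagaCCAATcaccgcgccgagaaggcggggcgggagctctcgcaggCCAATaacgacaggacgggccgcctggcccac
EBP: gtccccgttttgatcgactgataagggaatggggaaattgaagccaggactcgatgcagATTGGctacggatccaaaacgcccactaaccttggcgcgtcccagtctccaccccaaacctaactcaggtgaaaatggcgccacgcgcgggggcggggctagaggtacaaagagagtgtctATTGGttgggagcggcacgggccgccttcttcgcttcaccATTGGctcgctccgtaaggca
PMVK: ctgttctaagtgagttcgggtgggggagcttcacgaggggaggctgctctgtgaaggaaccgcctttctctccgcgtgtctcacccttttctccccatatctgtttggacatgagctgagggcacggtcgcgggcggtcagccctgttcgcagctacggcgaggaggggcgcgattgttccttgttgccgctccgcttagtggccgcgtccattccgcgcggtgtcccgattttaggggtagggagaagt
SCD: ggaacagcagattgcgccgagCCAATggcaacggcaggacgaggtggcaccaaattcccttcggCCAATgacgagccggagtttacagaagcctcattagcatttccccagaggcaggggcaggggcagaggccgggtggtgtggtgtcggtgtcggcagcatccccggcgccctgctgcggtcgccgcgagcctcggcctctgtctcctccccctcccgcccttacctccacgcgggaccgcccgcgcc

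On day 1, 27 of the 32 genes were higher than on day 0 and 3 were lower, while 25.4% of all transcripts were called higher and 27.3% lower. The median change of the 32 was 1.10 on the log2 scale, against -0.06 over all transcripts. On day 2, 28 were higher and 2 lower (23.2% and 24.4% of all transcripts), with a median of 1.16 against -0.04. With a fold change above 2 in addition, 19 were higher on day 1 (7.27% of all transcripts) and 17 on day 2 (6.32%), followed by 5, 2, 5 and 2 on days 4, 6, 8 and 10 (4.12%, 3.18%, 3.60% and 2.41%). By the same edgeR rule 0 members were lower on any day, whereas the share of all transcripts lower ran, from day 1 to day 10, through 13.2%, 8.94%, 5.29%, 3.52%, 4.58% and 3.52%. The number higher then declined to 23 on day 4 (19.0% of all transcripts) and 20 on day 6 (17.5%), was 26 on day 8 (18.2%) and 21 on day 10 (16.1%). Lower calls were 1 on day 4 (20.1%), 2 on day 6 (17.0%), and 0 on day 8 (18.6%) and day 10 (15.8%) by edgeR and by DESeq2, with 0 also at an unadjusted p under 0.05. Every library lay above every day 0 library for 25 members on each of days 1 and 2 (20.8% and 18.5% of all transcripts), and for 16, 18, 20 and 15 members on days 4, 6, 8 and 10 (13.5%, 12.3%, 12.4% and 11.3%). Of the 32 genes, 16 were higher on all 6 days (6.72% of all transcripts) and 13 had every library above every day 0 library on all 6 days (3.52%). Shares of all transcripts include those with few counts, which are seldom called. Of the 12301 transcripts that passed filterByExpr, as all 32 members did, 4445 were higher and 4276 lower on day 1. On day 10, 2842 of them were higher and 2652 lower. In bulk RNA, fewer cells of a type and less RNA per cell cannot be told apart. In the paper, viable cells were fewest on day 2 and back at starting numbers on day 6. The share of apoptotic cells was highest on day 4. Whether this cell loss took part in the members' changes was not tested. Without scaling factors the median of all transcripts that passed filterByExpr was 0.124, 0.132 and 0.106 on days 1, 2 and 4, against 0.00978, 0.00476 and -0.00642 with them, and 4977 were higher and 3077 lower on day 2, against 4069 and 3897.

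**Figure D1:**
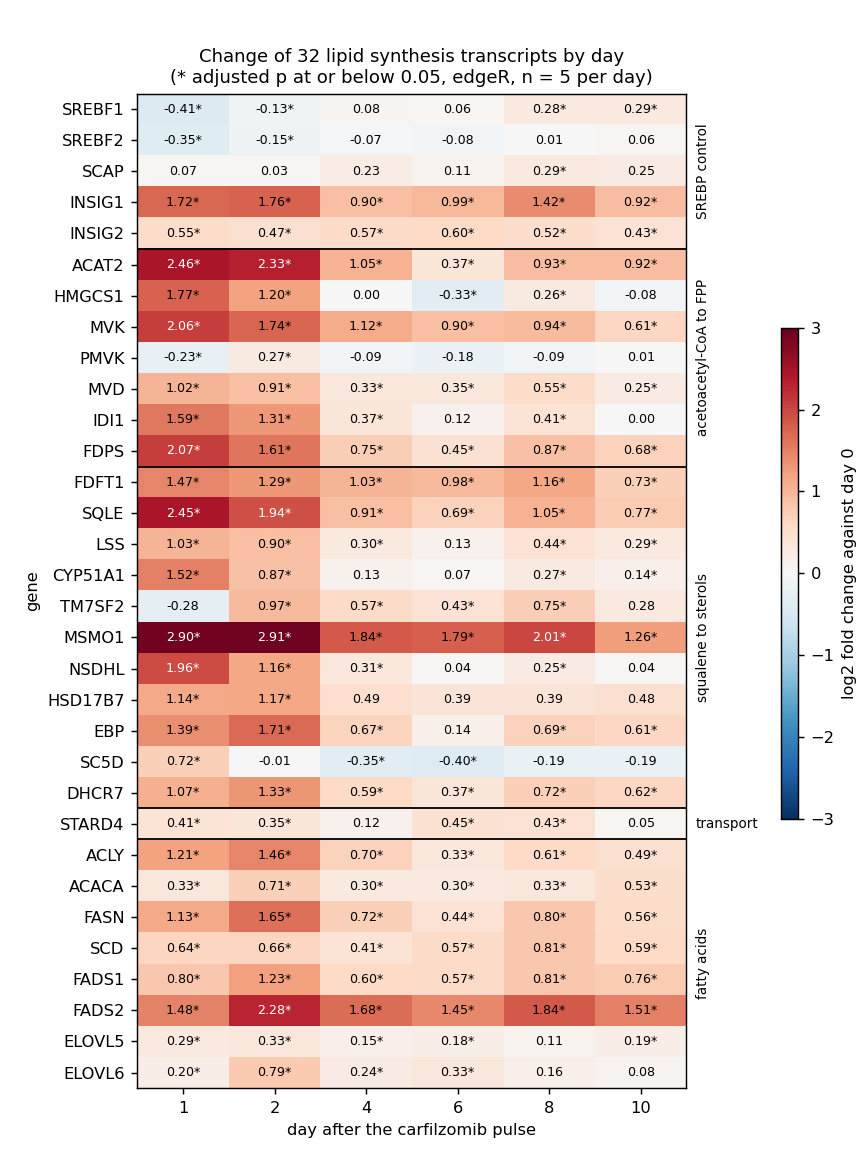
Log2 fold change of each of the 32 transcripts (rows) on each day (columns) against day 0, from edgeR with 5 libraries per day, with red for higher, blue for lower and an asterisk for Q at or below 0.05. The largest changes are those of MSMO1 on days 1 and 2 (2.90 and 2.91), most sterol branch rows are paler from day 4 on, and FADS2 and MSMO1 stay above 1 on every day.

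SREBF2 and SREBF1, which encode the 2 transcription factors, fell on day 1. SREBF2 was at 525, 536, 458, 526 and 496 CPM in the day 0 libraries and at 401, 413, 381, 398 and 396 CPM on day 1. All day 1 libraries lay below every day 0 library, and the fall was -0.35 ± 0.05 on the log2 scale (edgeR Q = 3.65e-08). SREBF1 was at 453, 445, 401, 425 and 450.3 CPM on day 0 and at 339, 345, 296, 323 and 335 CPM on day 1, again without overlap (-0.41 ± 0.05, edgeR Q = 1.07e-08). On day 2 both overlapped with day 0, with changes of -0.15 ± 0.05 for SREBF2 and -0.13 ± 0.05 for SREBF1. Those small day 2 falls were called (edgeR Q = 0.00821 and 0.0381) but were lost without scaling factors (-0.0227 and -0.00225, edgeR Q = 0.716 and 1) and in a fit of these days alone (edgeR Q = 0.0579 and 0.107), and that of SREBF1 also without day 2 replicate 1 or 4 (edgeR Q = 0.0727 and 0.106). Later the pair parted. SREBF1 was at 517, 508, 521, 585 and 514 CPM on day 8, above every day 0 library (0.28 ± 0.05, edgeR Q = 2.29e-05), and was still higher on day 10 (0.29 ± 0.05, edgeR Q = 2.09e-05). SREBF2 was 0.01 ± 0.05 from day 0 on day 8 and 0.06 ± 0.05 on day 10, neither called (edgeR Q = 0.918 and 0.400), although the day 10 value passed without scaling factors (0.12, edgeR Q = 0.0210).

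The within-library ratio of SREBF2 to SREBF1 carried this shift. On the log2 scale it was 0.21, 0.27, 0.19, 0.31 and 0.14 in the day 0 libraries and -0.05, 0.11, -0.13, -0.14 and -0.01 on day 8, so that every day 8 library lay below every day 0 library. The difference was -0.27 (exact two-sided permutation p = 0.00794, the smallest that 5 against 5 libraries can give, adjusted p = 0.0127 over 24 such tests). It was -0.23 on day 10 with the same exact permutation p, and -0.14 and -0.14 on days 4 and 6 (exact permutation p = 0.0159 for each, adjusted p = 0.0201), with overlapping libraries. On days 1 and 2, when both transcripts were lower, it differed by 0.06 and -0.02 (exact permutation p = 0.175 and 0.579), which did not pass.

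INSIG1, the sterol sensor that is itself induced by SREBP, moved with the synthesis genes. Its libraries read 242, 216, 219, 226 and 214 CPM on day 0, 723, 744, 768, 727 and 709 on day 1 and 783, 807, 750.0, 705 and 735 on day 2. No day 1 or day 2 library came near the day 0 range, and the changes were 1.72 ± 0.06 and 1.76 ± 0.06 on the log2 scale (edgeR Q = 5.05e-26 and 4.22e-26). INSIG1 stayed higher on every later day, by 0.90 to 1.42. INSIG2, its counterpart that is less tied to SREBP, read 17.0, 13.0, 15.6, 18.6 and 14.6 CPM on day 0 and 26.8, 22.7, 18.3, 23.0 and 24.3 on day 1, with overlapping ranges. It was called on all 6 days at 0.43 to 0.60 on the log2 scale, although on day 10 without day 0 replicate 2 it was 0.38 and no longer passed (edgeR Q = 0.0561). The log2 ratio of INSIG1 to INSIG2 was higher by 1.18, 1.30 and 0.93 on days 1, 2 and 8, without overlap with day 0 (exact permutation p = 0.00794 and adjusted p = 0.0127 on each of these days). It was higher by 0.49 on day 10, also without overlap (exact permutation p = 0.00794, adjusted p = 0.0127), and by 0.35 and 0.39 on days 4 and 6 with overlapping libraries (exact permutation adjusted p = 0.0363 and 0.0201). SCAP was 0.07 ± 0.10 and 0.03 ± 0.10 from day 0 on days 1 and 2, with overlapping libraries (edgeR Q = 0.626 and 0.881), and was called on day 8 (0.29 ± 0.10, edgeR Q = 0.0199), a call lost without day 0 replicate 2 or day 8 replicate 5 (edgeR Q = 0.0556 and 0.0636). It was not called on days 4 and 10 (0.23 ± 0.10 and 0.25 ± 0.10, edgeR Q = 0.0731 and 0.0590) but passed on both without day 0 replicate 1 (0.35 and 0.36, edgeR Q = 0.00540 and 0.00501) and without scaling factors (0.34 and 0.31, edgeR Q = 0.00546 and 0.0132). The day 4 value also passed without day 4 replicate 5 (0.31, edgeR Q = 0.0143), and the day 10 value with filterByExpr (0.25, edgeR Q = 0.0464), in a fit of these days alone (0.26, edgeR Q = 0.0256) and without day 10 replicate 4 or 5 (edgeR Q = 0.0347 and 0.0482).

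**Figure D2:**
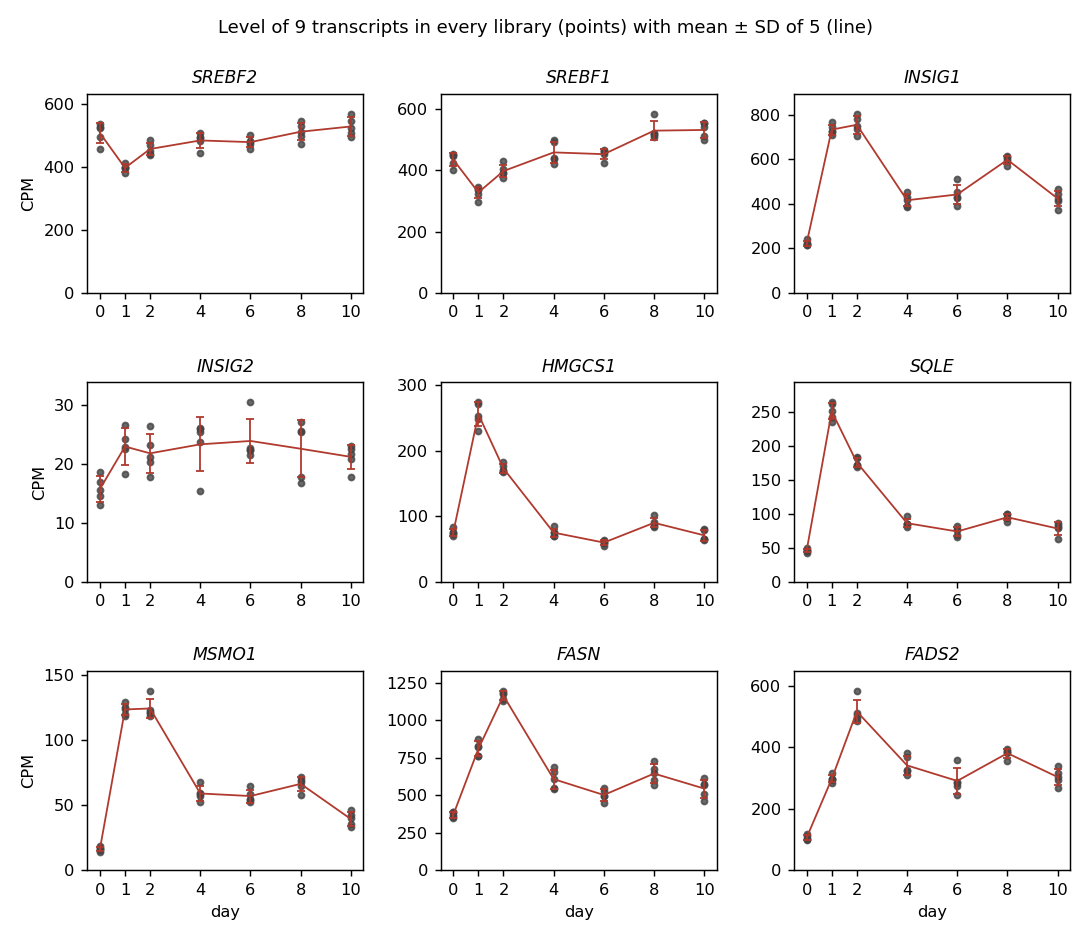
Level in CPM (vertical axes, starting at 0) of 9 transcripts in every library (points) by day, with the mean and SD of 5 libraries (line and bars). SREBF2 and SREBF1 dip on day 1, HMGCS1 and SQLE peak on day 1, FASN and FADS2 peak on day 2, and INSIG1 and HMGCS1 rise again from day 6 to day 8.

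In the mevalonate pathway, from acetoacetyl-CoA to farnesyl diphosphate, 6 of 7 genes rose more than 2-fold on day 1 (7.27% of all transcripts). ACAT2, the cytosolic thiolase that makes acetoacetyl-CoA, was at 14.8, 14.9, 14.5, 14.6 and 12.7 CPM on day 0 and at 76.3, 77.8, 82.0, 78.0 and 80.1 CPM on day 1. This was the largest rise of the 7 (2.46 ± 0.11 on the log2 scale, edgeR Q = 2.57e-22), and it was nearly as large on day 2 (2.33 ± 0.11). HMGCS1, hydroxymethylglutaryl-CoA synthase, was at 70.5, 76.0, 72.2, 74.6 and 82.8 CPM on day 0, 272, 254, 274, 249 and 230.1 on day 1 and 176, 167, 169, 183 and 171 on day 2. Its rise of 1.77 ± 0.07 (edgeR Q = 8.56e-25) was gone by day 4 (0.00 ± 0.07), and on day 6 HMGCS1 was below its starting level (-0.33 ± 0.07, edgeR Q = 2.02e-04). On that day its libraries read 58.8, 58.5, 54.4, 62.6 and 64.2 CPM, all below the day 0 range. FDPS, farnesyl diphosphate synthase, was at 105, 105, 101, 118 and 117 CPM on day 0 and 438, 478, 445, 461 and 472 on day 1 (2.07 ± 0.07, edgeR Q = 6.36e-27), and it stayed higher on all days. MVK, mevalonate kinase, rose by 2.06 ± 0.18, IDI1, isopentenyl diphosphate isomerase, by 1.59 ± 0.08, and MVD, mevalonate diphosphate decarboxylase, by 1.02 ± 0.09 on day 1, each with every library above every day 0 library.

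PMVK, phosphomevalonate kinase, which works between MVK and MVD, was the exception. It was at 96.8, 93.3, 91.5, 96.0 and 105 CPM on day 0, 73.2, 83.1, 86.0, 85.4 and 83.9 on day 1 and 125, 123, 117, 103 and 115 on day 2. Its day 1 libraries lay below the day 0 range (-0.23 ± 0.07, edgeR Q = 0.00818), which was not called without scaling factors (-0.12, edgeR Q = 0.164). On day 2 it was slightly higher (0.27 ± 0.07, edgeR Q = 0.00143), and from day 4 on it was between -0.18 and 0.01 of day 0 without a call, although the day 6 value passed with RLE size factors and with DESeq2 (-0.19 in each, Q = 0.0395 and 0.0324). PMVK and CYP51A1, which rose, were the sterol branch genes in the promoter table without CCAAT.

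From squalene onward, 9 of 11 genes rose more than 2-fold on day 1 (7.27% of all transcripts). MSMO1, a methylsterol monooxygenase that takes part in removing methyl groups from lanosterol derivatives, had the largest change of all 32 genes. It was at 19.0, 13.8, 16.6, 16.0 and 16.9 CPM on day 0, 120.4, 126, 129, 119 and 124 on day 1 and 121, 138, 122, 118 and 123 on day 2. The day 1 and day 2 libraries were all above 100 CPM, and the changes were 2.90 ± 0.09 and 2.91 ± 0.09 (edgeR Q = 4.41e-28 and 6.58e-28). MSMO1 fell back only in part, with 1.84 ± 0.09 on day 4, 2.01 ± 0.09 on day 8 and 1.26 ± 0.09 on day 10. SQLE, squalene epoxidase, the oxygen-using step that commits squalene to sterols, was at 45.4, 49.8, 42.2, 46.9 and 45.0 CPM on day 0 and 252, 262, 265, 236 and 244 on day 1 (2.45 ± 0.07, edgeR Q = 4.18e-29). FDFT1, squalene synthase, rose by 1.47 ± 0.06 and kept much of this, with 0.98 ± 0.06 on day 6 and 0.73 ± 0.07 on day 10. Day 6 libraries of FDFT1 read 193, 206, 212, 207 and 217 CPM against 105, 101, 95.1, 120.4 and 103 on day 0.

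NSDHL and CYP51A1 peaked on day 1. NSDHL, the sterol dehydrogenase that works with MSMO1, read 20.0, 20.6, 17.3, 25.1 and 23.7 CPM on day 0 and 76.4, 79.3, 85.9, 93.0 and 78.1 on day 1 (1.96 ± 0.09, edgeR Q = 9.71e-22), and it was 0.04 ± 0.10 from day 0 on day 6. CYP51A1, lanosterol demethylase, rose by 1.52 ± 0.05 on day 1 and was 0.07 ± 0.06 from day 0 on day 6. LSS, lanosterol synthase, rose by 1.03 ± 0.07 on day 1 and 0.90 ± 0.07 on day 2, with libraries of these days that overlapped, and was 0.13 ± 0.07 from day 0 on day 6. None of the 3 was called on day 6 (edgeR Q = 0.845, 0.401 and 0.169), although LSS passed without scaling factors (0.19, edgeR Q = 0.0442). EBP, sterol isomerase, and DHCR7, dehydrocholesterol reductase, peaked on day 2 instead, at 1.71 ± 0.14 and 1.33 ± 0.07. A separate entry of EBP, listed as a processed transcript, held more counts than the protein-coding entry (27.3 against 14.1 CPM on average on day 0). The former value is scaled to counts of all biotypes and the latter to protein-coding counts, so they are not on one scale. In an edgeR fit over all biotypes, 11 of 40 such other entries of the members were called higher on day 2, when 24.3% of all 26617 entries were called higher and 23.0% lower. The day 2 level of DHCR7 was 353, 381, 331, 353 and 363 CPM against 279, 307, 287, 308 and 303 on day 1, with no overlap. HSD17B7, the ketosteroid reductase that acts with MSMO1 and NSDHL, had few counts (4.19 ± 1.28 CPM on day 0, SD, n = 5) and rose by 1.14 ± 0.23 on day 1 (edgeR Q = 4.07e-05). A transcribed copy, HSD17B7P2, held 639 counts over the 35 libraries under its processed transcript entry against 1512 for HSD17B7, so counts of this gene are uncertain.

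TM7SF2 and SC5D did not follow the others. TM7SF2, a sterol reductase, was at 17.4, 14.1, 11.4, 14.6 and 12.1 CPM on day 0, 11.3, 12.6, 12.02, 12.5 and 9.13 on day 1 and 24.1, 30.8, 29.4, 28.8 and 23.8 on day 2. On day 1 its libraries overlapped with day 0 and it was not called (-0.28 ± 0.13, edgeR Q = 0.0614), although falls of -0.32 with filterByExpr and -0.31 with RLE size factors and with DESeq2 passed (Q = 0.0229, 0.0375 and 0.0397). From day 1 to day 2 it rose by 1.25 ± 0.12 (edgeR Q = 8.63e-12), the largest step of any of the 32 genes in that interval. SC5D, lathosterol desaturase, read 20.8, 19.7, 21.8, 22.4 and 24.3 CPM on day 0, 32.3, 34.2, 39.5, 37.2 and 36.0 on day 1, 20.5, 21.9, 22.4, 21.9 and 21.4 on day 2 and 15.1, 17.3, 18.8, 17.4 and 16.4 on day 4. Its rise of 0.72 ± 0.10 (edgeR Q = 7.15e-08) had ended by day 2, and on days 4 and 6 it was lower than on day 0 (-0.35 ± 0.11 and -0.40 ± 0.11, edgeR Q = 0.00768 and 0.00300), the day 4 call being lost without scaling factors (-0.24, edgeR Q = 0.0812). STARD4, a carrier that moves sterol between membranes, was called higher on 4 days with small changes, 0.41 ± 0.11 on day 1 and 0.45 ± 0.10 on day 6.

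All 8 genes of fatty acid synthesis were called higher on days 1, 2, 4 and 6 (25.4%, 23.2%, 19.0% and 17.5% of all transcripts), and 6 of 8 on all 6 days (6.72%). ACLY, ATP citrate lyase, which supplies cytosolic acetyl-CoA to both branches, was at 173, 178, 172, 179 and 182 CPM on day 0, 417, 400.1, 409.6, 403 and 416 on day 1 and 501, 499, 472, 464 and 497 on day 2. Its libraries did not overlap between any of these days (1.21 ± 0.05 and 1.46 ± 0.05 against day 0, edgeR Q = 9.62e-24 and 3.80e-26). FASN, fatty acid synthase, was at 388, 388, 353, 352 and 367 CPM on day 0, 876, 824, 761, 759 and 827 on day 1 and 1127, 1179, 1193, 1139 and 1175 on day 2. The rise was 1.13 ± 0.07 on day 1 and 1.65 ± 0.07 on day 2 (edgeR Q = 1.13e-17 and 8.52e-23). ACACA, the acetyl-CoA carboxylase that makes malonyl-CoA, changed less, by 0.33 ± 0.05 on day 1 and 0.71 ± 0.05 on day 2 (edgeR Q = 1.33e-06 and 5.68e-15).

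Among the desaturases, FADS2, the rate-limiting desaturase of the polyunsaturated pathway, changed most. It was at 110.4, 104, 99.2, 117 and 102 CPM on day 0, 285, 316, 296, 295 and 296 on day 1, 506, 582, 512, 485 and 496 on day 2 and 302, 315, 293, 269 and 338 on day 10. No library of the treated days shown overlapped with day 0, and the change was 2.28 ± 0.07 on day 2 (edgeR Q = 1.99e-26) and still 1.51 ± 0.07 on day 10 (edgeR Q = 7.32e-20). FADS1, which acts after it, rose by 0.80 ± 0.05 on day 1 and 1.23 ± 0.05 on day 2 and was 0.76 ± 0.05 higher on day 10. The annotated bodies of FADS1 and FADS2 overlap by 29692 bases on opposite strands of chromosome 11. Reads were assigned to transcripts, so only bases present in transcripts of both genes matter here, and their number was not measured. Whether counting used strand is not given in the sources used here, so reads from such bases may be split between the genes. SCD, stearoyl-CoA desaturase, which makes monounsaturated fat, read 823, 764, 714, 817 and 761 CPM on day 0, 1227, 1259, 1239, 1160 and 1225 on day 2 and 1332, 1450, 1381, 1345 and 1296 on day 8. It rose by 0.64 ± 0.05, 0.66 ± 0.05 and 0.81 ± 0.05 on days 1, 2 and 8 (edgeR Q = 1.86e-14, 1.08e-14 and 5.35e-17), with its highest mean on day 8. Of the elongases, ELOVL6, which extends palmitate, rose by 0.20 ± 0.07 on day 1 and 0.79 ± 0.07 on day 2 (edgeR Q = 0.0127 and 2.89e-13), the day 1 call being lost without day 0 replicate 2 or 5 (edgeR Q = 0.0720 and 0.0589). ELOVL5, which extends polyunsaturated chains, rose by 0.29 ± 0.06 and 0.33 ± 0.06 (edgeR Q = 7.62e-05 and 8.87e-06). Its smaller rises on days 4 and 6 (0.15 ± 0.06 and 0.18 ± 0.06, edgeR Q = 0.0383 and 0.0139) depended on single libraries. The day 4 call was lost without day 0 replicate 2 or 3 or day 4 replicate 3 (edgeR Q = 0.0823, 0.0611 and 0.187) and in a fit of these days alone (edgeR Q = 0.0833), and the day 6 call without day 0 replicate 2 or day 6 replicate 4 (edgeR Q = 0.0605 and 0.0572).

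Set side by side, most sterol genes peaked on day 1 and most fatty acid genes on day 2. On day 1, 17 of 19 sterol genes were higher, 15 of them more than 2-fold, and 1 was lower. Of the fatty acid genes, 8 of 8 were higher, 3 of them more than 2-fold. Over all transcripts, 25.4% were higher on that day, 7.27% were higher by more than 2-fold, and 27.3% were lower. The median change was 1.47 in the sterol branch and 0.72 in the fatty acid branch. On day 2 the medians were 1.20 and 1.01. From day 1 to day 2, 8 sterol genes fell and 4 rose, whereas 6 fatty acid genes rose and 0 fell by edgeR (over all transcripts, 20.2% were higher and 19.4% lower). The 8 that fell were HMGCS1, IDI1, FDPS, FDFT1, SQLE, CYP51A1, NSDHL and SC5D, with changes of -0.18 to -0.80 on the log2 scale, and the 6 that rose were ACLY, ACACA, FASN, FADS1, FADS2 and ELOVL6, by 0.25 to 0.80. The highest mean level fell on day 1 for 12 of 19 sterol genes and on day 2 for 7 of 8 fatty acid genes.

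The mean log2 CPM over each branch, set to the day 0 mean, gave a value for every library. The sterol branch was at 1.39, 1.39, 1.39, 1.44 and 1.34 on day 1 and at 1.26, 1.31, 1.27, 1.24 and 1.22 on day 2. The fatty acid branch was at 0.73, 0.76, 0.79, 0.75 and 0.77 on day 1 and at 1.11, 1.18, 1.16, 1.08 and 1.16 on day 2. Every sterol value on day 1 exceeded every sterol value on day 2, and the reverse held for fatty acids. The median level over the branch was also taken in place of the mean. It follows the gene in the middle of the branch, which differs between days, so it is not a median of changes. By that measure the sterol value was 1.41 on day 1 and 1.86 on day 2, and both branches were highest on day 2 (1.14 and 1.71 for fatty acids). The median change of the sterol genes was instead larger on day 1 (1.47) than on day 2 (1.20). The difference between the branches was 0.63 ± 0.05 on day 1 (SD, n = 5), 0.12 ± 0.04 on day 2, -0.16 ± 0.04 on day 6 and -0.19 ± 0.04 on day 10, given as a description with no test. With the median level it was 0.27 on day 1, 0.01 on day 6 and -0.66 on day 10, so the negative difference on day 6 was not kept by that measure. On all treated days every library of both branches lay above every day 0 library.

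**Figure D3:**
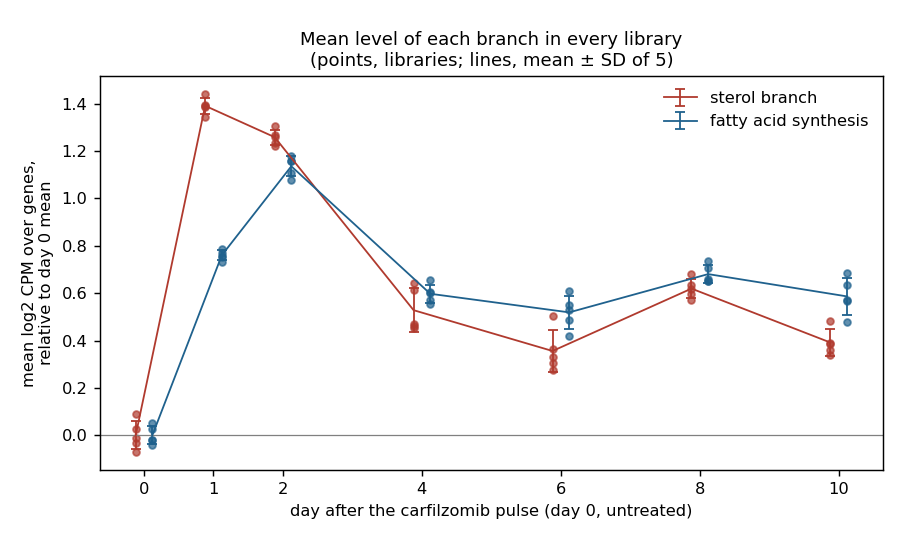
Mean log2 CPM over the 19 sterol branch genes (red) and the 8 fatty acid genes (blue) in every library, relative to the day 0 mean, by day, with the mean and SD of 5 libraries. The sterol mean is highest on day 1 (1.39), the fatty acid mean on day 2 (1.14), and from day 4 the fatty acid mean lies above the sterol mean. Median levels, not drawn, are highest on day 2 in both branches (1.86 and 1.71) but follow different genes on different days.

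Within-library ratios were tested for 2 chosen pairs of enzymes, which do not test the branches as a whole. The log2 ratio of HMGCS1 to FASN was -2.46, -2.35, -2.29, -2.23 and -2.14 on day 0, -1.68, -1.70, -1.47, -1.61 and -1.84 on day 1 and -2.68, -2.82, -2.82, -2.64 and -2.78 on day 2. It stood above the day 0 range on day 1 and below it on day 2, with differences of 0.63 and -0.45 (exact permutation p = 0.00794 and adjusted p = 0.0127 for each). It stayed below day 0 on every later day, with a difference of -0.77 on day 6, with the same exact permutation p. The log2 ratio of SQLE to SCD, an oxygen-using enzyme of each branch, was -4.17, -3.93, -4.07, -4.11 and -4.07 on day 0 and -2.26, -2.22, -2.22, -2.31 and -2.30 on day 1. It was higher by 1.81, 1.28 and 0.49 on days 1, 2 and 4, without overlap (exact permutation p = 0.00794 and adjusted p = 0.0127 for each). On days 6, 8 and 10 it was higher by 0.12, 0.24 and 0.18 with overlapping libraries (exact permutation adjusted p = 0.0363, 0.0201 and 0.0433). Unlike HMGCS1 to FASN, this ratio did not drop below day 0.

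**Figure D4:**
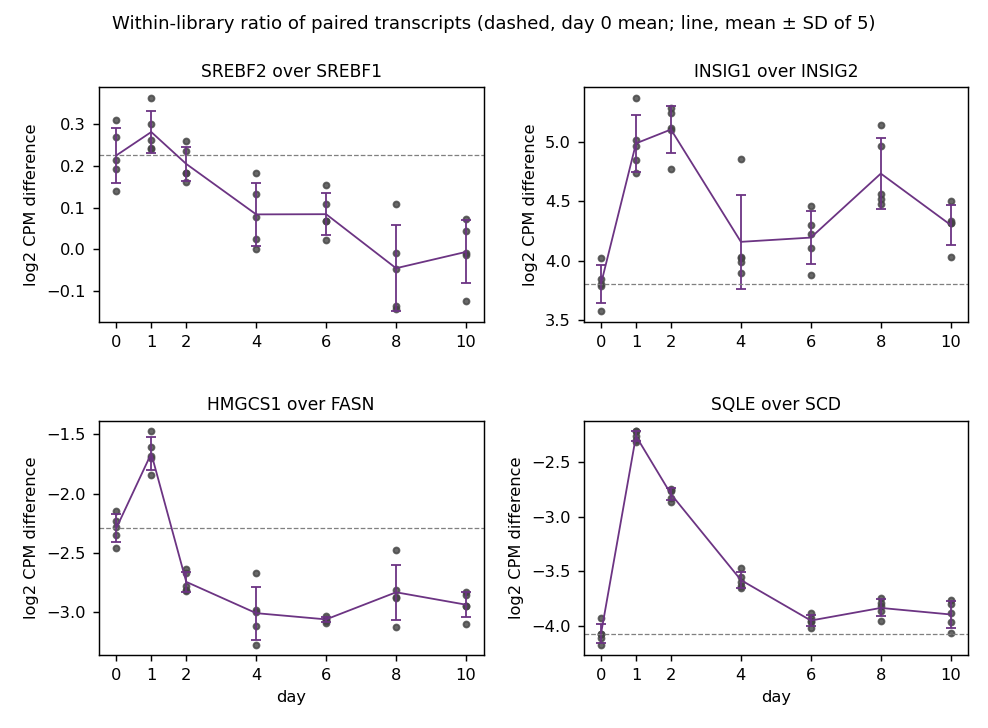
Log2 CPM difference between paired transcripts within each library (points) by day, with the mean and SD of 5 libraries and the day 0 mean as a dashed line. HMGCS1 over FASN and SQLE over SCD jump on day 1, HMGCS1 over FASN then stays below the dashed line, and SREBF2 over SREBF1 declines to -0.0454 on day 8.

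The return after day 2 was broad. From day 2 to day 4, 27 of the 32 genes fell and 1 rose, against 16.7% and 13.9% of all transcripts. The falls were largest for ACAT2 (-1.29 ± 0.10), HMGCS1 (-1.21 ± 0.07) and MSMO1 (-1.07 ± 0.07), and the gene that rose was SREBF1 (0.21 ± 0.05, edgeR Q = 0.00186). The number that rose was 3 without day 2 replicate 2 or day 4 replicate 5. All 8 proliferation markers fell in this interval as well, and their part in the result was not tested. From day 4 to day 6, 10 genes fell and 2 rose (5.98% and 6.09% of all transcripts). The number that fell was 5 without day 4 replicate 4 and 6 without day 6 replicate 3, and the number that rose was between 0 and 2 as libraries were left out. ACAT2 fell again (-0.68 ± 0.11, edgeR Q = 2.74e-05), and STARD4 and SCD were the 2 that rose (0.33 ± 0.10 and 0.15 ± 0.05). By day 6, MSMO1 (1.79) and FADS2 (1.45) were the members still past a 2-fold change.

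Between days 6 and 8 the lipid genes moved again, at a time when few other transcripts did. Of the 32 genes, 16 rose and 0 fell by edgeR, whereas 1.03% of all transcripts were higher and 1.53% lower. By DESeq2, 18 rose and 0 fell, against 3.79% and 3.36% of the 10321 transcripts to which it gave an adjusted p. At an unadjusted p under 0.05 in edgeR, 21 were higher and 1 lower, against 6.20% and 7.34%. The rising genes were 9 of 19 in the sterol branch, 5 of 8 in fatty acid synthesis, and INSIG1 and SREBF1 among the regulators. HMGCS1 rose most, from 58.8, 58.5, 54.4, 62.6 and 64.2 CPM on day 6 to 83.5, 85.7, 101, 91.5 and 87.7 on day 8. The 2 days did not overlap, and the change was 0.59 ± 0.07 (edgeR Q = 1.45e-07). INSIG1 went from 425, 453, 392, 431 and 511 to 615, 592, 603, 570.3 and 613 CPM, again without overlap (0.44 ± 0.06, edgeR Q = 1.33e-06). FDPS rose by 0.42 ± 0.07 and FASN by 0.36 ± 0.07 (edgeR Q = 3.41e-05 and 9.80e-04). ACAT2 rose by 0.55 ± 0.11 (edgeR Q = 0.00183) with libraries that overlapped. The count of rising genes was between 13 and 17 as each library was left out, and 12 in a fit of these days alone. In the same interval edgeR called 0 of 8 proliferation markers, with 3 higher and 0 lower at an unadjusted p under 0.05.

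From day 8 to day 10, 12 of the 32 genes fell and 1 rose (4.97% and 5.08% of all transcripts). MSMO1 fell most, from 71.8, 69.3, 68.2, 58.2 and 64.9 to 33.1, 35.5, 46.5, 42.3 and 39.9 CPM, without overlap (-0.75 ± 0.08, edgeR Q = 3.22e-09). INSIG1 fell to 374, 413, 446, 422 and 466 CPM (-0.50 ± 0.06, edgeR Q = 2.53e-08), as did FDFT1 (-0.43 ± 0.06) and IDI1 (-0.40 ± 0.08). ACACA was the gene that rose (0.20 ± 0.05, edgeR Q = 0.00716). Cell density was adjusted on days 6 and 8 according to the methods, and the part of this and of medium renewal in the day 8 values was not tested.

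**Figure D5:**
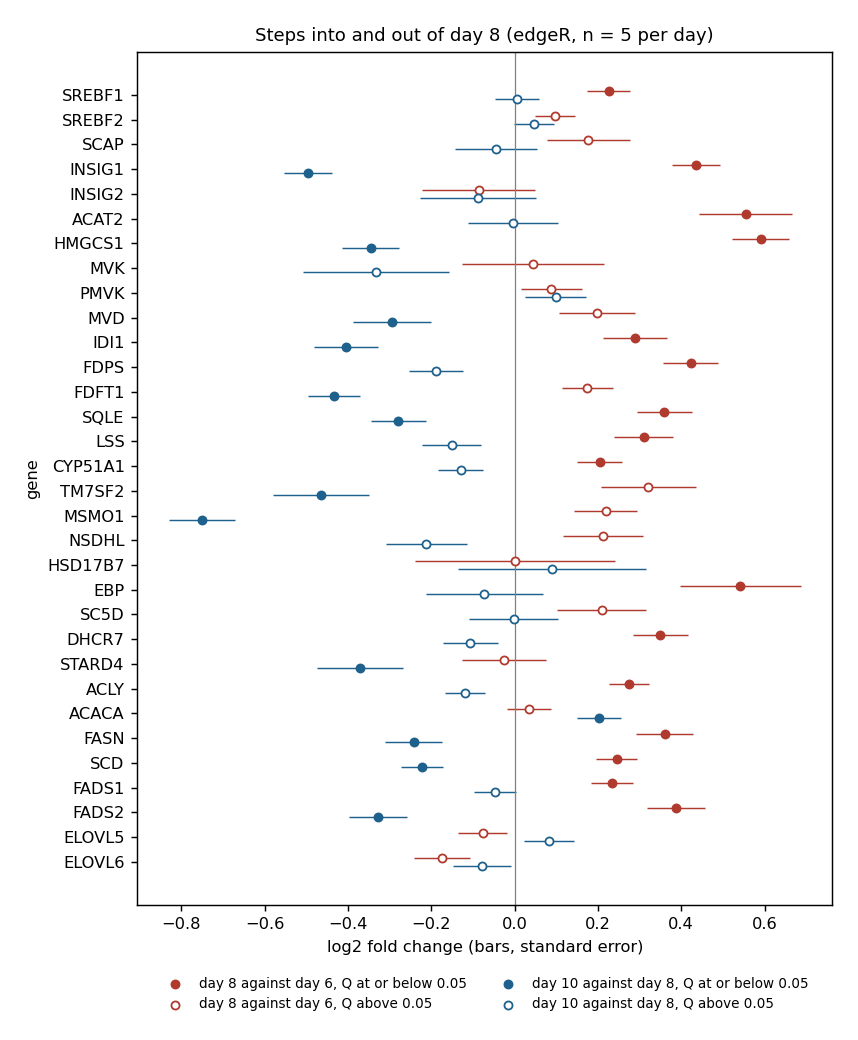
Log2 fold change and standard error (horizontal axis) of each of the 32 transcripts from day 6 to day 8 (red) and from day 8 to day 10 (blue), with filled points for Q at or below 0.05. The 16 filled red points all lie above 0, and 12 of the 13 filled blue points lie below 0, the exception being ACACA.

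On day 10 fewer sterol genes than on day 2 were still called. Of 19 sterol genes, 11 were still called higher than on day 0, with a median change of 0.29, and MSMO1 alone was past 2-fold. Of 8 fatty acid genes, 7 were called higher, with a median of 0.55, and FADS2 alone was past 2-fold. Over all transcripts, 16.1% were called higher on day 10, and 2.41% were called higher and past 2-fold. HMGCS1 (-0.08 ± 0.07), IDI1 (0.00 ± 0.08) and NSDHL (0.04 ± 0.10), which had risen by 1.77, 1.59 and 1.96 on day 1, were not called on day 10 (edgeR Q = 0.396, 1.00 and 0.852). MVD and CYP51A1 were called at 0.25 ± 0.10 and 0.14 ± 0.06, and both calls were lost when any of several libraries was left out (MVD without day 10 replicate 5, edgeR Q = 0.107, and CYP51A1 without day 0 replicate 3, edgeR Q = 0.172).

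Genes around the pathway moved less evenly on day 2, when 23.2% of all transcripts were called higher and 24.4% lower. Of 7 other genes listed as responding to sterols, 6 were higher and 1 lower. Their changes ran from LBR (1.02 ± 0.05), a nuclear membrane sterol reductase, to LPIN1 (-0.41 ± 0.07), a phosphatidate phosphatase. Of 10 other genes that control SREBP, 3 were higher and 3 lower, from AUP1 (2.08 ± 0.41), a lipid droplet protein, to RNF139 (-0.57 ± 0.07), a ubiquitin ligase of the endoplasmic reticulum. Of 10 genes that use mevalonate for other products, 5 were higher and 2 lower, from PDSS1 (1.67 ± 0.15), which makes the tail of coenzyme Q, to FNTA (-0.41 ± 0.09), a subunit of the prenyl transferases. Of 13 tested genes listed under other elongation and desaturation, 8 were higher and 2 lower. Their changes ran from ACACB (1.13 ± 0.29), the mitochondrial acetyl-CoA carboxylase and itself no elongase or desaturase, to ELOVL7 (-0.76 ± 0.28), an elongase. Of 9 tested genes of sterol efflux and storage, 3 were higher and 4 lower, from MYLIP (1.32 ± 0.08), a ubiquitin ligase induced by the oxysterol receptors LXR, to ABCG1 (-2.41 ± 0.10), a cholesterol exporter.

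ABCG1 was at 78.1, 76.8, 77.8, 79.8 and 78.3 CPM on day 0, 13.2, 16.8, 13.7, 17.3 and 15.4 on day 1 and 13.9, 16.4, 15.1, 14.8 and 12.6 on day 2, without overlap with day 0 on either day (edgeR Q = 8.10e-23 on day 1). ABCA1, its partner in efflux, named here after its values were seen, went from 30.2, 32.4, 29.9, 39.1 and 37.9 CPM on day 0 to 2.21, 1.26, 3.73, 1.54 and 1.86 on day 1 (-3.99 ± 0.17, edgeR Q = 1.19e-22). Both were still lower on day 10, with changes of -0.74 and -0.90 on the log2 scale. MYLIP, in contrast, was higher on all 6 days.

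Proliferation markers moved with the synthesis genes on day 2. All 8 were higher, with a median of 2.19 on the log2 scale and changes from 0.57 to 2.84. Their summed level was 441 to 475 CPM in the day 0 libraries, 565 to 635 on day 1, 1409 to 1506 on day 2 and 697 to 855 on day 10. In the paper's flow cytometry of this line, however, proliferation had its minimum on day 2 and picked up by day 4. Marker RNA and that measurement thus differed on day 2. The part of proliferation in the members' changes was not tested. Plasma cell markers summed to 5920 to 6817 CPM on day 0 and 2286 to 2654 on day 1, mostly JCHAIN on day 0, and their part was not tested either.

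Among 10476 other transcripts with a mean log2 CPM above 2, the 5 whose 7 day means followed the sterol branch most closely were UBA1, EEF1AKMT4, NDUFA13, ARPC4 and RNF34, with Pearson r of 0.994 to 0.996 over 7 days. For the fatty acid branch they were AAAS, NUP85, TTLL12, SAMD1 and COX5B, with r of 0.990 to 0.994. These correlations rest on 7 means that share libraries. Within the branches, the profile of a sterol gene correlated with the mean of the other sterol genes at a median r of 0.940, from 0.0308 for TM7SF2 to 0.992 for SQLE. The r of SREBF2 with the sterol profile was -0.812 and that of INSIG1 was 0.912.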

How the data were processed

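RNA-seq of RPMI-8226 cells gave 35 libraries, 5 for each of 7 days, sequenced as paired ends from a directional kit. The authors deposited estimated counts per gene and biotype as whole numbers, in a table of 84647 entries. Per the methods and the submitters' processing notes, these came from kallisto 0.44.0, tximport 1.9.8 and GENCODE release 28 (GRCh38.p12), and DESeq2 1.25.8 and R 3.5.0 were named too. The deposited counts are estimated by assigning reads among transcripts, so reads of near-identical copies may be divided between genes.

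Groups were the labelled days. The 19665 protein-coding entries were used, of which 1666 had no count in any library and 17999 were tested. Library totals ran from 6519392 to 10962890 counts (median 7643975) and TMM factors from 0.929 to 1.08. No library was a copy of another (chi-square per degree of freedom of 2.47 to 9.21 between libraries of a day). edgeR 4.0.16 in R 4.3.3 fitted quasi-likelihood models with day as a factor over all 35 libraries, and p-values were adjusted by Benjamini-Hochberg over all 17999 transcripts. Levels for the branch means and ratios were log2 CPM with a prior count of 2. Ratios within libraries were compared by exact two-sided permutation over 252 assignments, with 24 tests adjusted together. In counts simulated for day 2 against day 0 over 16496 genes, 97 of 100 genes changed 4-fold and 60 of 100 changed 1.5-fold were called. Of 16296 unchanged genes, 11 were called. The changed genes were drawn from the better counted ones, with as many raised as lowered. They were far fewer than the transcripts called in the data, so these rates need not hold there. Alternatives were filterByExpr (12301 transcripts kept), RLE size factors, no scaling factors, a replicate block, fits of the compared days alone, DESeq2 1.42.0, a fold change above 2, a prior count of 0.5, the median over a branch, and each library left out. Python 3.11.15, pandas 2.3.3 and matplotlib 3.10.9 made summaries and plots.

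The members and lists were chosen with earlier results of these data known. All 32 members could be named. Of each other pathway list, the genes with the largest and smallest log2 fold change among those called on day 2 were named, as were the 5 transcripts most like each branch in their day means. The comparison of promoters with tested genes and the fit over all biotypes were added after the data were seen. Entries of other biotypes entered none of the protein-coding fits, branch means or ratios, and were described only from the separate fit over all biotypes.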

Additional observations from a re-analysis of the deposited data

Results flagged for a closer look

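Of 245 groups of 5 libraries, 1 for each day of a gene or a branch value, 10 held a library that stood apart from the other 4 by Dixon's test, where chance flags about 1 in 20 groups. Day 8 replicate 4 was such a library for 3 genes, with SREBF1 at 585 CPM (the others at 508 to 521), MVK at 10.4 CPM (14.2 to 15.2) and SC5D at 14.8 CPM (19.6 to 20.9). INSIG2 was at 15.4 CPM in day 4 replicate 4 (23.8 to 26.1) and at 30.5 CPM in day 6 replicate 2 (21.6 to 22.8). The remaining 5 were ACAT2 in day 0 replicate 5 at 12.7 CPM (14.5 to 14.9), PMVK in day 1 replicate 1 at 73.2 CPM (83.1 to 86.0), SQLE in day 10 replicate 4 at 62.7 CPM (79.4 to 86.2), MSMO1 in day 2 replicate 2 at 138 CPM (118 to 123) and ACLY in day 8 replicate 2 at 254 CPM (270.3 to 276).

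The table also lists transcripts of the same genes under other biotypes, which the protein-coding comparisons of the report left out. In a fit over 26617 entries of all biotypes, chosen after the table was seen, 40 such entries of 24 members were tested on day 2 by edgeR, and the 11 called at an adjusted p of 0.05 or below were all higher than on day 0. Of all 26617 entries, 24.3% were called higher and 23.0% lower. Of the processed transcript entries, those of FDFT1 (1.98 on the log2 scale), EBP (1.79), ACAT2 (1.66), IDI1 (1.47), ELOVL6 (1.25) and HSD17B7 (0.67) rose. Of the retained intron entries, those of FADS2 (2.46), FDFT1 (1.43), INSIG1 (1.39), FDPS (0.85) and HMGCS1 (0.80) rose. The processed transcript entry of EBP held 95.8 CPM on day 2 and 27.3 CPM on day 0.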

How the results depend on the processing

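No called change of a member against day 0 changed sign under any alternative run. Calls at an adjusted p of 0.05 changed for 14 gene and day pairs of 192 without scaling factors, 7 in fits of the compared days alone, 5 with filterByExpr, 3 with RLE size factors, 3 with DESeq2 and 1 with a replicate block. Leaving out a library changed 52 of 1920 such calls, 30 of them lost. The causes were not tested.

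With a fold change above 2 in addition, the counts of members higher fell to 17 (day 2), 5 (day 4), 2 (day 6), 5 (day 8) and 2 (day 10), and the counts lower to 0 (days 1, 2, 4 and 6). Without scaling factors 0 members were lower on days 2 and 4 and 0 rose from day 4 to day 6. In fits of the compared days alone 0 were lower on day 2, 1 rose from day 4 to day 6 and 0 rose from day 8 to day 10. The number that rose from day 2 to day 4 was 3 with filterByExpr and 2 with DESeq2, and with RLE size factors 1 rose from day 4 to day 6. With each library left out, 1 to 2 members were lower on day 2 (1 without day 2 replicate 1 or 4), 1 to 3 rose from day 2 to day 4, 0 to 2 rose and 5 to 12 fell from day 4 to day 6. Over all transcripts that passed filterByExpr, those called between days 6 and 8 numbered 457 as reported, 252 in a fit of these days alone and 738 with DESeq2.

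Branch means kept their sign under every alternative with the exception of 1 difference. Without scaling factors the sterol mean was 1.504, 1.39, 0.64, 0.67 and 0.46 on days 1, 2, 4, 8 and 10, and the fatty acid mean 0.87, 1.26, 0.71 and 0.73 on days 1, 2, 4 and 8. With RLE size factors the fatty acid mean was 0.73 on day 1. With the median level over the branch, the sterol value was 1.41, 1.86, 0.89, 0.83, 1.06 and 0.32 (from day 1 to day 10). This level follows the middle gene of each day and was highest on day 2, whereas the median change was 1.47 on day 1 and 1.20 on day 2. The fatty acid value was 1.14, 1.71, 1.01, 0.81, 1.07 and 0.99 (from day 1 to day 10). The difference was 0.27, 0.0146 and -0.66 on days 1, 6 and 10, the day 6 difference thereby changing sign. The ratio of INSIG1 to INSIG2 on day 4 was 0.35 with a prior count of 0.5 and no longer passed (exact permutation adjusted p = 0.0519). With libraries left out it was 0.18 to 0.42 and lost its call in 5 fits, and SQLE to SCD was 0.10 to 0.16 on day 6 and 0.14 to 0.22 on day 10, losing its call in 8 each, where 4 against 5 libraries give fewer assignments.

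Whether the replicate numbers pair the libraries was not settled. Of 55 same-numbered pairs of days, 0 deviated together with r over 0.1 (-0.118 to 0.0982). However, 14 of 35 libraries correlated best with their own number, more than an even spread over 5 numbers would give. The replicate block kept the 22 counts of members within 1.5 times, and the call it changed was CYP51A1 on day 10 (0.14, edgeR adjusted p = 0.0517). The ratios were not run with the block, since 5 pairs cannot give a p below 0.0625.

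The lowest member count in a library was 16, so small changes of the rarer transcripts were not detectable at this depth.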
